A study of Mus musculus with 39 samples.

Results

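The genes described here encode the alpha and beta chains of the CD8 co-receptor and the killing machinery that cytotoxic lymphocytes carry. They were chosen by name, as 10 symbols: Cd8a, Cd8b1, Gzma, Gzmb, Gzmk, Prf1, Ifng, Nkg7, Ncr1 and Klrk1. Of these 10, 6 had a row among the 39676 genes of the count table and are described below, namely Cd8a, Cd8b1, Gzmk, Nkg7, Ncr1 and Klrk1. Gzma, Gzmb, Prf1 and Ifng were not analysed here. They were measured by RNA sequencing in 39 subcutaneous AB1-HA tumours, 1 library per tumour. AB1-HA is a BALB/c mouse mesothelioma line that carries the influenza haemagglutinin gene as a model antigen, and the mice were female and male BALB/c. Treatments were PBS (n = 10), tretinoin alone (n = 9), immune checkpoint therapy alone (ICT, n = 10) or both (Tretinoin+ICT, n = 10). Tretinoin, or all-trans retinoic acid, was given at 5 mg/kg each day from day 4, for 5 doses. ICT was 100 ug of an antibody against CTLA-4 with 100 ug of an antibody against PD-L1 on day 7. Tumours were taken out on day 9. The combination mice carried a second tumour that was left in place, and its later fate gave the labels Responder (n = 6) and Non-responder (n = 4).

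CD8 is the co-receptor with which cytotoxic T cells read peptides on MHC class I. It is a dimer of the alpha chain (Cd8a) with either the beta chain (Cd8b1) or a second alpha chain, and the alpha chain alone is also found on some dendritic cells. Killing by cytotoxic T cells and NK cells goes through granules, from which perforin opens a path for granzymes into the target cell. Gzmk is a granzyme found in a subset of T and NK cells, and Nkg7 is a membrane protein of the granules in both. Ncr1 encodes NKp46, an activating receptor that marks NK cells and some innate lymphoid cells. Klrk1 encodes NKG2D, an activating receptor of NK cells and activated CD8+ T cells that binds stress-induced ligands on target cells.

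On GRCm38 the 6 genes lie on 3 chromosomes. The CD8 chains are neighbours on the plus strand of chromosome 6, Cd8b1 at chr6:71322788-71337494 and Cd8a at chr6:71373427-71379173. Klrk1 lies on the minus strand of the same chromosome at chr6:129610323-129623864. Nkg7 (chr7:43437073-43438249) and Ncr1 (chr7:4337724-4345164) are both on the plus strand of chromosome 7. Gzmk is on the minus strand at chr13:113171608-113225908, and this span holds Esm1 on the opposite strand, with 0 exonic bases shared.

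The stretch before the start is shown for Cd8a, whose level did not pass the test in any comparison below, and for Nkg7, Ncr1 and Klrk1, whose levels did. RefSeq (GRCm38.p6) held promoters of 5 of the 6 genes. Each sequence runs 5′ to 3′ on the gene's strand and covers 250 bases before the start, or 185 for Nkg7. Capitals mark matches, on either strand, to TGTGGT (the core letters of Runx sites), AGGTCA (one repeat of a retinoid receptor element) and TTCNNNGAA (an interferon gamma activated site). AGGTGT, the T-box letters, was also searched and was in none of the stretches shown. It was in the part of the Nkg7 window left out here, 14 to 9 bases before the start, and at 2 places in the Gzmk window. Cd8a, chr6:71373177-71373426:
Cd8a: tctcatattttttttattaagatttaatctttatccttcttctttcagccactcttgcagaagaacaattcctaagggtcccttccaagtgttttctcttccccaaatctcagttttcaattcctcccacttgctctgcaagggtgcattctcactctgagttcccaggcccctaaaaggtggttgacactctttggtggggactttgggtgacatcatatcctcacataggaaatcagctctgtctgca
Klrk1, chr6:129623865-129624114 on the minus strand:
Klrk1: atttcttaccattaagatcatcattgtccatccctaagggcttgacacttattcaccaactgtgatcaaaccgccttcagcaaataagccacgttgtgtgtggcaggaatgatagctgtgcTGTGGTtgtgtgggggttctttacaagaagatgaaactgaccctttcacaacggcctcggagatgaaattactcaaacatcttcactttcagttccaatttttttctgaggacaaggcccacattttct
Ncr1, chr7:4337465-4337714:
Ncr1: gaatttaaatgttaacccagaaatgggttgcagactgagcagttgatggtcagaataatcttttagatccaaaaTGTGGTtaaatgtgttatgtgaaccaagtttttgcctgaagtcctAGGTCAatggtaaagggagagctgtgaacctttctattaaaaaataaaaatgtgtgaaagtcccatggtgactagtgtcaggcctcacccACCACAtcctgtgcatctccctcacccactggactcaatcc
Nkg7, chr7:43436888-43437072:
Nkg7: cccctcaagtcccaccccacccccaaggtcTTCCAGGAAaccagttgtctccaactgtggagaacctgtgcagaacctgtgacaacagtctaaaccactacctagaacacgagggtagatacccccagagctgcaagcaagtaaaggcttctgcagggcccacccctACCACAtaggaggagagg

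The Runx letters were in 3 of the 4 sequences, once in Klrk1 (129 to 124 bases before the RefSeq start), once in Nkg7 and at 2 places in Ncr1. They were not in the Cd8a window. Ncr1 held AGGTCA, and Nkg7 held the interferon gamma activated site. Such short words are common: TGTGGT was in 14% of 32851 mouse promoters of this length, AGGTCA in 14%, AGGTGT in 11.8% and TTCNNNGAA in 7.0%. A match is a string of letters and not a binding site.

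The libraries held between 14033046 and 37951183 counted reads, with a median of 18548168. All 6 genes had reads in every tumour, but their depth differed. Gzmk rested on 5 to 74 reads per tumour and Cd8b1 on 17 to 240, against 211 to 2093 for Klrk1, so the values of Gzmk carry the most counting error. Per kilobase of exon, mean levels over the 39 tumours were 16.9 CPM (counts scaled to library size) for Nkg7, 14.2 for Ncr1 and 6.14 for Klrk1. By the same scale the CD8 chains were close to each other, at 2.61 for Cd8a and 2.73 for Cd8b1, and Gzmk was lowest at 1.0. In bulk tumour RNA, fewer cells of a type and less RNA per cell cannot be told apart.

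A small number of tumours stood above the rest of their group across these genes. In the ICT group, tumours AB63 and AB82 were the top pair for 6 of 6 genes. AB33 was the highest tretinoin tumour for 5 of 6, and AB14 the highest PBS tumour for 5 of 6. Ptprc, which encodes the pan-leukocyte protein CD45, was also highest in the same tumours, at 404 CPM in AB14, 415 in AB33 and 768 in AB63. Fits and ratios whose call changed when these tumours were left out are given both ways. These tumours were chosen as the highest in these same genes, so levels in the groups that lose them fall largely by the choice itself. The tumours were named in 8 series of up to 5 tumours, each holding a single treatment, so series and treatment cannot be told apart.

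**Figure D1:**
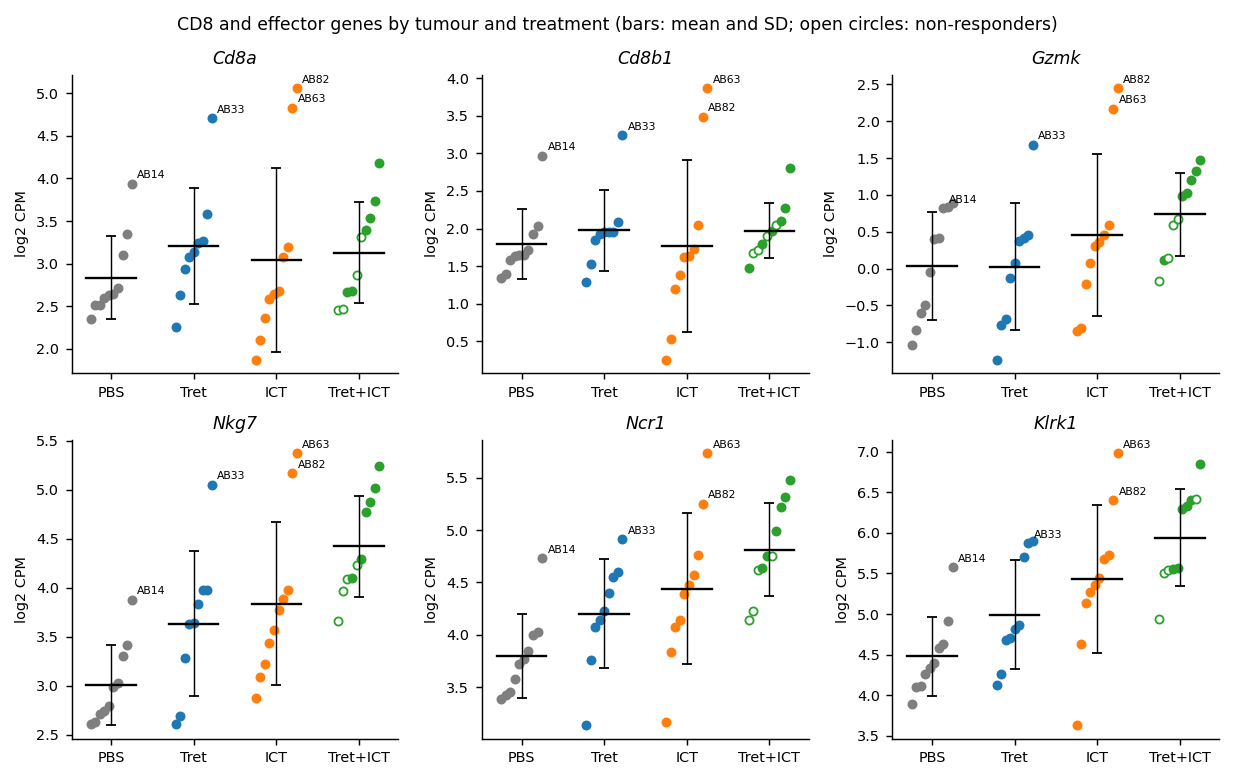
Level of each gene in each of the 39 tumours on the log2 CPM scale, by treatment, with group means (lines) and SD (bars). Cd8a, Cd8b1 and Gzmk overlap widely between treatments, while Nkg7, Ncr1 and Klrk1 step up towards the combination, and AB63 and AB82 lie above the other 8 ICT tumours in all 6 panels.

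Neither CD8 chain passed the test under any treatment. Cd8a was 4.99, 6.12 and 15.3 CPM (lowest, median and highest) in PBS tumours. It was 4.68, 8.71 and 26.0 CPM with tretinoin, 3.54, 6.20 and 33.2 with ICT, and 5.37, 8.49 and 18.0 with the combination. The groups overlapped throughout, and the highest ICT values were those of AB82 (33.2) and AB63 (28.3), followed by 9.10 in AB61. Means were ordered PBS (7.47 ± 3.14, SD, n = 10), Tretinoin+ICT (9.35 ± 4.08, n = 10), tretinoin (10.2 ± 6.26, n = 9) and ICT (11 ± 10.6, n = 10), and no neighbours in that order differed beyond their spread. By edgeR's quasi-likelihood test, Cd8a differed from PBS by a log2 fold change of 0.46 ± 0.28 (SE) with tretinoin (adjusted p = 0.246). The difference was 0.55 ± 0.40 with ICT (adjusted p = 0.326) and 0.33 ± 0.24 with the combination (adjusted p = 0.264).

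Cd8b1, the beta chain, followed the alpha chain at a lower count. Its lowest, median and highest levels were 2.43, 3.03 and 7.73 CPM in PBS tumours and 2.34, 3.75 and 9.32 with tretinoin. They were 1.09, 2.98 and 14.5 with ICT, where AB63 and AB82 (11.1) were again above the rest, and 2.67, 3.72 and 6.85 with the combination. Against PBS the log2 fold changes were 0.22 ± 0.24 with tretinoin, 0.36 ± 0.40 with ICT and 0.16 ± 0.20 with the combination, with adjusted p values of 0.544, 0.544 and 0.526. Without AB63 and AB82, the ICT against PBS value turned negative for both chains, at -0.30 for Cd8a (adjusted p = 0.423) and -0.48 for Cd8b1 (adjusted p = 0.227).

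Gzmk was between 0.316 and 5.35 CPM over the 39 tumours. Group medians were 1.04 CPM in PBS, 0.952 with tretinoin, 1.15 with ICT and 1.68 with the combination. Of the 10 combination tumours, 5 were above every PBS tumour, whose highest value was 1.74 CPM in AB52. The log2 fold change of the combination against PBS was 0.69 ± 0.29 and missed the threshold (adjusted p = 0.0506). It passed in 6 of 20 fits that left out 1 tumour (AB13, AB14, AB21, AB44, AB45 or AB52), with an adjusted p of 0.0314 without AB14. With ICT alone it was 0.72 ± 0.44 (adjusted p = 0.241), and -0.12 without AB63 and AB82.

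Nkg7, Ncr1 and Klrk1 rose with the combination. In PBS tumours Nkg7 was 5.99, 7.36 and 14.6 CPM (lowest, median and highest), and in combination tumours 12.5, 19.1 and 37.6. Of the combination tumours, 9 of 10 were above every PBS tumour, and the overlap was with AB14. The fitted rise was 2.74-fold (log2 1.46 ± 0.21, adjusted p = 1.43e-05). Intermediate medians of 12.4 CPM with tretinoin (highest 33.1, AB33) and 12.7 with ICT (highest 41.2, AB63) lay between them. Means were ordered PBS (8.28 ± 2.72, n = 10), tretinoin (13.9 ± 8.05, n = 9), ICT (16.8 ± 11.8, n = 10) and Tretinoin+ICT (22.6 ± 8.32, n = 10). No step between neighbours in that order passed the test, with adjusted p values of 0.0517, 0.697 and 0.443.

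Ncr1 was 10.4, 13.3 and 26.5 CPM in PBS tumours and 17.5, 26.9 and 44.6 with the combination. It was 2.05-fold higher with the combination (log2 1.03 ± 0.19, adjusted p = 0.000138), and 10 of 10 combination tumours were above the PBS median. Tretinoin tumours had 8.72, 18.6 and 29.9 CPM and ICT tumours 8.89, 21.6 and 52.9. The lowest ICT value of Ncr1, in AB85, was below all PBS tumours, and AB85 was also the lowest ICT tumour for Cd8a, Nkg7 and Klrk1. The order of means was the same as for Nkg7, from 14.3 ± 4.74 (PBS) through 19.3 ± 6.24 and 24.2 ± 12.8 to 29.2 ± 8.91 CPM (SD), and again no neighbours passed the test.

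Klrk1, the most abundant of the 6 in reads, had the widest range of group levels. PBS tumours held 14.7, 20.6 and 47.7 CPM and combination tumours 30.6, 63.1 and 116. The combination was 2.82-fold above PBS (log2 1.496 ± 0.245, adjusted p = 6.55e-05), and 9 of 10 PBS tumours were below every combination tumour. With tretinoin the levels were 17.4, 27.9 and 59.6 CPM and with ICT 12.3, 42.2 and 126. Neighbours in the order PBS, tretinoin, ICT and Tretinoin+ICT did not pass the test, with adjusted p values of 0.133, 0.369 and 0.519.

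Counted over the genes, 3 of 6 passed in the combination against PBS at an adjusted p below 0.05 and a log2 fold change of at least 1, the rule of the study's methods. In that comparison 5.45% of 14265 genes tested were higher by this rule, and 25.7% were higher at an adjusted p below 0.05 alone, by which 3 of 6 also passed. Left out in turn, each of 20 tumours kept Nkg7, Ncr1 and Klrk1 below an adjusted p of 0.05. The log2 fold change of Ncr1 ranged from 0.95 to 1.17 and was under 1 without AB11, AB12, AB15, AB24, AB41 or AB42. The median log2 fold change of the 6 genes was 0.86, against -0.01 for all genes tested.

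ICT alone against PBS gave the same 3 genes smaller differences, which no longer passed when 2 tumours were left out together. Klrk1 was 2.16-fold higher (log2 1.11 ± 0.32, adjusted p = 0.0197) and Nkg7 2.03-fold higher (log2 1.02 ± 0.30, adjusted p = 0.0232). Ncr1 passed on the adjusted p alone, at 0.75 ± 0.26 (adjusted p = 0.0418). The count was thus 2 of 6 by both criteria, where 2.28% of 14155 genes were higher, and 3 of 6 by the adjusted p, where 14.1% were. Without AB63 and AB82 none of the 3 passed by edgeR, with log2 fold changes of 0.67 for Klrk1 (adjusted p = 0.109), 0.46 for Nkg7 (adjusted p = 0.111) and 0.40 for Ncr1 (adjusted p = 0.220). AB63 and AB82 were set aside because they were the highest in these same genes. The highest PBS tumour, AB14, was kept, so lower values in that fit follow from the choice. Leaving out AB63 alone took Nkg7 to an adjusted p of 0.0518, and leaving out AB82 alone to 0.0532. Klrk1 stayed below 0.05 in 20 of 20 such fits and Ncr1 in 6 of 20. The log2 fold change of Nkg7 fell under 1 without AB11, AB12, AB13, AB15, AB53, AB63 or AB82, and that of Klrk1 without AB63, where it was 0.85.

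Tretinoin alone against PBS gave 0 of 6 genes past the threshold by edgeR, in a comparison where 20.4% of 14340 genes passed in either direction. Nkg7 was nearest, at a log2 fold change of 0.75 ± 0.27 (adjusted p = 0.0517), followed by Ncr1 (0.43 ± 0.20, adjusted p = 0.129) and Klrk1 (0.57 ± 0.27, adjusted p = 0.133). At an unadjusted p, these values were 0.0107, 0.0428 and 0.0452. By DESeq2, 1 of 6 passed, Nkg7 (adjusted p = 0.0178), where 3434 of 14340 genes passed in either direction. Without AB14 and AB33, 2 of 6 passed by edgeR, Nkg7 at 0.60 (adjusted p = 0.0291) and Ncr1 at 0.46 (adjusted p = 0.0460), in a fit where 11.8% of 14391 genes were higher. AB14 and AB33 were chosen on these same genes, so that fit is not independent of the choice. Of the single tumours, leaving out AB14, AB72, AB74 or AB75 brought Nkg7 under the threshold, AB14 or AB75 did so for Ncr1, and AB14 for Klrk1 (adjusted p = 0.0351). AB14 was the highest PBS tumour for Nkg7, Ncr1 and Klrk1, and AB75 the lowest tretinoin tumour for Nkg7 and Ncr1. Larger differences without them follow from leaving out an extreme.

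**Figure D2:**
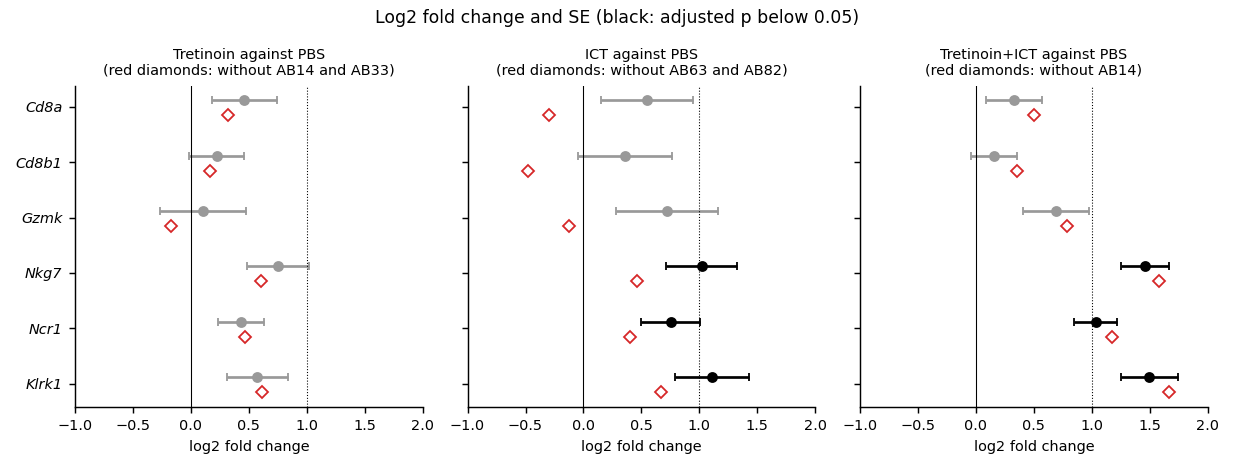
Log2 fold change against PBS (points) with its SE (bars) for each gene under each treatment; black points passed an adjusted p of 0.05 and red diamonds repeat the fit without the tumours named above each panel. Without AB63 and AB82, the top ICT tumours in these genes, all 6 ICT values move left and Cd8a, Cd8b1 and Gzmk turn negative. Without AB14, the top PBS tumour for 5 of 6, the combination values lie at or above the full fit, which for those 5 follows from the choice. No combination tumour was left out, so the panels do not compare how firmly the ICT and combination values hold.

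By edgeR, Klrk1 and Ncr1 were higher with the combination than with tretinoin alone, a result that changed with the processing. Klrk1 was 1.89-fold higher (log2 0.92 ± 0.28, adjusted p = 0.0276), with 10 of 10 combination tumours above the tretinoin median of 27.9 CPM. Ncr1 was 1.52-fold higher (0.60 ± 0.20, adjusted p = 0.0411). Nkg7 missed the threshold at 0.70 ± 0.28 (adjusted p = 0.0778), as did Gzmk at 0.59 ± 0.33 (adjusted p = 0.198), and Cd8a was at -0.13 ± 0.29 (adjusted p = 0.770). By the adjusted p, 2 of 6 were higher, against 12.3% of 14393 genes, and by both criteria 0 of 6, against 1.87%. By DESeq2, 3 of 6 passed the adjusted p, where 3748 of 14393 genes passed in either direction. It was 1 of 6 with all 39 tumours in one fit (4183 of 14977 genes) and 0 of 6 with no low-count filter (2254 of 27426 genes). Single tumours were not left out in turn for this comparison. Without AB33, 4 of 6 passed the adjusted p: Klrk1 (1.05, adjusted p = 0.0116), Nkg7 (0.98, adjusted p = 0.00627), Gzmk (0.96, adjusted p = 0.0168) and Ncr1 (0.71, adjusted p = 0.0145). In that fit 16.4% of 14465 genes were higher. Cd8a turned to 0.18 in the same fit. AB33 was left out because it stood high in these same genes, so higher values in that fit follow from the choice.

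Adding tretinoin to ICT gave 0 of 6 past the threshold over ICT alone by edgeR and by DESeq2, and 0 of 6 at an unadjusted p. Of 14202 genes, 1.99% passed in either direction. Log2 fold changes ranged from -0.23 ± 0.40 for Cd8a (adjusted p = 0.774) to 0.43 ± 0.31 for Nkg7 (adjusted p = 0.443). The outcome depended on AB63 and AB82. Without them, 3 of 6 were higher in the combination: Nkg7 (0.98, adjusted p = 0.00914), Ncr1 (0.63, adjusted p = 0.0453) and Gzmk (0.80, adjusted p = 0.0467). In that fit 9.58% of 14322 genes were higher. Klrk1 (0.82, adjusted p = 0.0507), Cd8b1 (0.63, adjusted p = 0.0566) and Cd8a (0.62, adjusted p = 0.0812) missed it. AB63 and AB82 were set aside because they stood apart in these same genes, so this fit compares the combination with the lower 8 ICT tumours.

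Tretinoin and ICT alone did not differ detectably in the level of any of the 6 genes (0 of 6 by edgeR and by DESeq2, and 0 of 6 at an unadjusted p), where 9.54% of 14314 genes did in either direction. The values ran from -0.62 ± 0.48 for Gzmk to -0.09 ± 0.43 for Cd8a. Some ratios of these genes to Cd3e and Cd8a did differ between tretinoin and ICT, as given below. In the test of whether the 2 treatments combined other than additively on the log2 scale, 0 of 6 genes (by edgeR and by DESeq2, and 0 of 6 at an unadjusted p) and 0.307% of 14977 genes passed. The interaction was negative for all 6 in the full set, from -0.69 ± 0.51 (Cd8a) to -0.14 ± 0.57 (Gzmk), and positive for all 6, from 0.16 (Ncr1) to 0.98 (Gzmk), without AB14, AB33, AB63 and AB82. In that reduced fit 0 of 6 passed. It leaves out high tretinoin and ICT tumours chosen on these same genes and no combination tumour. That choice favours a positive interaction, so the change of sign is not a result about the treatments.

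Ratios within a tumour compare the genes with each other directly. Each ratio is a difference of 2 log2 CPM values in the same tumour, and 9 ratios were compared in 7 comparisons, with p values adjusted over 63 tests. Nkg7 over Cd3e, a T cell receptor subunit, was -0.03 ± 0.21 (SD) in PBS tumours, 0.24 ± 0.34 with tretinoin, 0.99 ± 0.33 with ICT and 1.33 ± 0.33 with the combination. ICT tumours exceeded PBS tumours by 1.02 (permutation test, adjusted p = 0.00063), with 9 of 10 above every PBS tumour. The combination exceeded PBS by 1.36 (permutation test, adjusted p = 0.000341), with 10 of 10 above every PBS tumour. The raw p of 2e-05 there is the smallest that the resampling can give.

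Ncr1 and Klrk1 behaved alike over Cd3e. With ICT the ratios were higher than in PBS tumours by 0.84 for Ncr1 (permutation test, adjusted p = 0.00151) and 1.14 for Klrk1 (permutation test, adjusted p = 0.00136). With the combination they were higher by 0.97 and 1.41, each with an adjusted p of 0.000341 (permutation test) and 10 of 10 tumours above every PBS tumour. Tretinoin alone gave 0.05 for Ncr1, 0.16 for Klrk1 and 0.27 for Nkg7 over Cd3e, none of them past the threshold, and the combination exceeded tretinoin alone for all 3 (exact permutation test, adjusted p = 0.000546, 0.00136 and 0.000341). Tretinoin was lower than ICT in all 3 ratios, by -0.75 for Nkg7, -0.79 for Ncr1 and -0.984 for Klrk1 (exact permutation test, adjusted p = 0.00198, 0.00399 and 0.013). Cd3e itself had a log2 fold change against PBS of -0.03 ± 0.26 with ICT and 0.09 ± 0.16 with the combination (adjusted p = 0.952 and 0.649 by edgeR). Without AB14, AB33, AB63 and AB82 the ICT against PBS differences were 1.04 (Nkg7), 0.96 (Ncr1) and 1.23 (Klrk1), with adjusted p values of 0.0013, 0.00415 and 0.00471 (exact permutation test).

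Cd8a over Cd3e did not pass in any comparison, with the largest difference 0.40 for ICT against PBS (permutation test, raw p = 0.0562, adjusted p = 0.136). Cd8b1 over Cd8a also gave 0 of 7. Gzmk over Cd3e was lowest with tretinoin, at -3.37 ± 0.48, against -2.39 ± 0.51 with ICT and -2.36 ± 0.45 with the combination. Its difference of 1.01 between the combination and tretinoin passed (exact permutation test, adjusted p = 0.00136), with 9 of 10 combination tumours above every tretinoin tumour. Tretinoin was also lower than ICT, by -0.98 (exact permutation test, adjusted p = 0.00399). PBS tumours lay between, at -3.01 ± 0.66.

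Set against other cells, Cd8a moved in opposite directions. Over Foxp3, the transcription factor of regulatory T cells, Cd8a was -1.07 ± 0.39 in PBS tumours, -0.05 ± 1.07 with ICT and 0.08 ± 0.91 with the combination. The differences of 1.03 and 1.15 from PBS passed (permutation test, adjusted p = 0.0299 and 0.0084). Foxp3 itself fell by 0.80 with ICT and by 0.79 with the combination on the log2 scale (edgeR adjusted p = 0.000867 and 0.00052). Without the 4 tumours the ICT difference in Cd8a over Foxp3 no longer passed, the combination difference was 1.23 (exact permutation test, adjusted p = 0.00629), and tretinoin against PBS passed at 0.42 (exact permutation test, adjusted p = 0.0239). Over Ptprc, Cd8a was lower in the combination than in PBS tumours by -0.42 (permutation test, adjusted p = 0.0205) and than in tretinoin tumours by -0.66 (exact permutation test, adjusted p = 0.00399). Without the 4 tumours Cd8a over Ptprc also passed for ICT against PBS, at -0.47 (exact permutation test, adjusted p = 0.00629), and for tretinoin against ICT, at 0.64 (exact permutation test, adjusted p = 0.0013). Ptprc rose by a log2 fold change of 0.72 ± 0.15 in the combination against PBS (edgeR adjusted p = 0.000656). Over Cd4, the co-receptor of helper T cells, Cd8a gave 0 of 7.

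**Figure D3:**
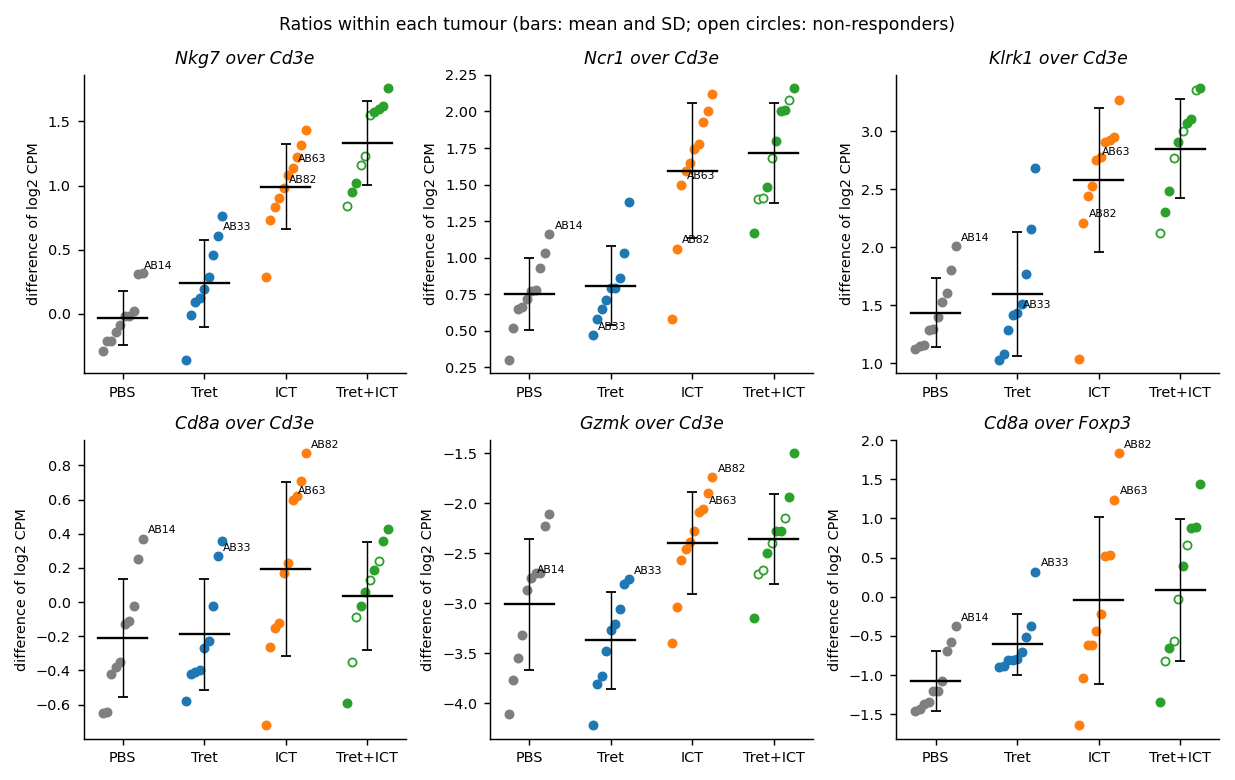
Difference of log2 CPM between pairs of genes in each tumour, by treatment, with means (lines) and SD (bars). All 10 combination tumours lie above all 10 PBS tumours for Nkg7, Ncr1 and Klrk1 over Cd3e, and AB63 and AB82 lie inside the range of the other ICT tumours in those 3 panels but at the top for Cd8a over Foxp3.

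The same genes were set over Cd8a in 4 ratios that were added after the values had been seen, with p values adjusted over 28 tests. In the combination against PBS, Klrk1 over Cd8a was higher by 1.17 and Nkg7 over Cd8a by 1.12 (permutation test, adjusted p = 0.00056 for both), and Ncr1 over Cd8a by 0.73 (permutation test, adjusted p = 0.00149). With ICT alone, Klrk1 over Cd8a was higher by 0.74 (permutation test, adjusted p = 0.00456) and Nkg7 over Cd8a by 0.62 (permutation test, adjusted p = 0.00647). Ncr1 over Cd8a missed it at 0.44 (permutation test, adjusted p = 0.102). Nkg7 over Cd8a was also higher in the combination than with ICT alone, by 0.50 (permutation test, adjusted p = 0.0406). Klrk1 over Cd8a was lower with tretinoin than with ICT, by -0.60 (exact permutation test, adjusted p = 0.0489). Nkg7 and Ncr1 over Cd8a missed the threshold there (exact permutation test, adjusted p = 0.105 and 0.169). Gzmk over Cd8a was higher in the combination than with tretinoin, by 0.79 (exact permutation test, adjusted p = 0.00145), and lower with tretinoin than with ICT, by -0.59 (exact permutation test, adjusted p = 0.00806), and it missed the threshold in the 3 comparisons against PBS. Without AB14, AB33, AB63 and AB82, Nkg7 over Cd8a in the combination against ICT no longer passed, at 0.38 (exact permutation test, adjusted p = 0.113). In the same set Ncr1 over Cd8a passed for ICT against PBS, at 0.63 (exact permutation test, adjusted p = 0.00768), and for tretinoin against ICT, at -0.52 (exact permutation test, adjusted p = 0.0298).

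Across tumours of the same treatment the 6 genes rose and fell together. After each group's mean was subtracted, Pearson's r between pairs ran from 0.73 (Gzmk with Klrk1) to 0.93 (Nkg7 with Ncr1) over 39 tumours, and Spearman's rho from 0.59 to 0.92. All 15 pairs had an adjusted p of 1e-05 for r (permutation within groups), the smallest that the resampling can give. Cd8a and Cd8b1, whose products pair in the CD8 dimer, had r = 0.91 and rho = 0.84. With the 2 tumours farthest from the median left out (AB63 with AB82 or AB41), r ran from 0.66 to 0.91. For rho the largest adjusted p was 0.00011 (permutation within groups). These points share whatever varied in leukocyte RNA between tumours, and Ptprc was among the 5 genes most like Cd8a.

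**Figure D4:**
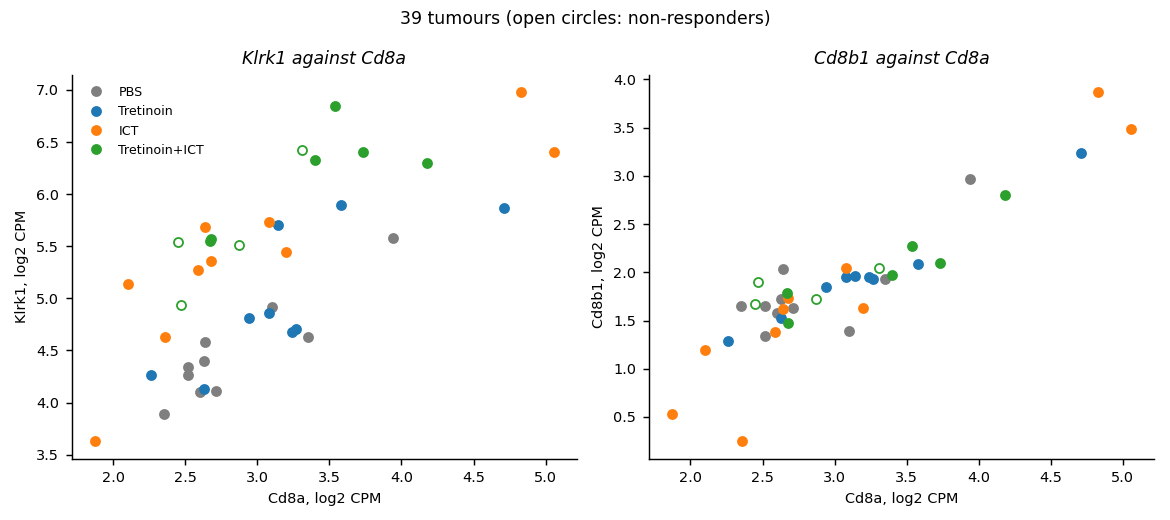
Klrk1 (left) and Cd8b1 (right) against Cd8a on the log2 CPM scale in the 39 tumours, coloured by treatment. Klrk1 rises with Cd8a but combination and most ICT tumours lie above PBS tumours at the same Cd8a, while for Cd8b1 the treatments share 1 band.

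The genes whose pattern was most like Cd8a, of 12102 compared by Spearman's rho on group-centred values over 39 tumours, were Ly9 (0.89), Arhgap15 (0.89), Ptprc (0.88), AW112010 (0.88) and Ms4a4b (0.88). The median rho over the compared genes was -0.06. Klrk1 was closest to AW112010 (0.97), Fgl2 (0.96), Cd40 (0.96), Cd274 (0.96), which encodes PD-L1, and Fam26f (0.95). Nkg7 and Ncr1 both had Slamf6, a lymphocyte receptor, among their closest (0.95 and 0.94). The lists for genes other than Cd8a were added after their values were seen.

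Other genes of the killing pathway were counted from lists set out by role. Bulk tumour RNA does not show which cells carried the transcripts, and their source was not tested. Summed macrophage markers also had a higher median in the combination than in PBS tumours (4300 against 2420 CPM). The same held for summed neutrophil markers (156 against 65.9 CPM). In the combination against PBS, 12 of 12 tested NK cell receptors and markers were higher at an adjusted p below 0.05, with a median log2 fold change of 1.05. Examples are the activating receptor Cd226 (1.39 ± 0.22, adjusted p = 4.42e-05), Klre1 (1.12 ± 0.17, adjusted p = 2.8e-05) and Slamf7 (1.40 ± 0.26, adjusted p = 0.000188). Among adapters that carry the signal of killer cell receptors, 5 of 7 were higher, with Syk at 0.84 ± 0.11 (adjusted p = 7.06e-06) and Fcer1g at 1.09 ± 0.15 (adjusted p = 1.06e-05). Of 4 tested ligands of NKG2D, the receptor that Klrk1 encodes, 0 were higher and 1 was lower, H60b (-0.40 ± 0.09, adjusted p = 0.00146). That count is near the share of all genes, since 24.5% of 14265 were lower.

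Granule genes followed. All 6 tested genes of granule packaging and release were higher, among them Srgn, the proteoglycan that holds granzymes in the granule (1.84 ± 0.19, adjusted p = 6.84e-07), and Unc13d, which primes granules for release (1.18 ± 0.18, adjusted p = 3.59e-05). Of the other granzymes, 2 of 7 were tested, and they moved apart: Gzmd rose (3.24 ± 0.53, adjusted p = 6.49e-05) and Gzmm, which is expressed by lymphocytes, fell (-0.53 ± 0.14, adjusted p = 0.00339). All 4 tested serpins that inhibit granzymes and other proteases were higher, with Serpina3g at 3.46 ± 0.44 (adjusted p = 6.93e-06) and the granzyme B inhibitor Serpinb9 at 1.23 ± 0.17 (adjusted p = 1.5e-05). Of death ligands and cytokines, 10 of 10 were higher, led by Csf2 (3.25 ± 0.35, adjusted p = 5.44e-07) and Lta (1.78 ± 0.24, adjusted p = 7.6e-06).

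Transcription factors of effector cells were higher in 8 of 12 tested, including Bhlhe40 (1.31 ± 0.12, adjusted p = 7.45e-08) and Runx3 (1.22 ± 0.14, adjusted p = 1.41e-06), which is needed for CD8+ T cell effector genes. Cytokines and receptors that induce effector genes were higher in 12 of 14, with Il21r (1.35 ± 0.13, adjusted p = 3.05e-07) and Il15ra (1.29 ± 0.15, adjusted p = 1.66e-06) at the head. The interferon gamma receptor and its early targets were higher in 11 of 11, with a median of 1.86 and Irf1 at 1.86 ± 0.20 (adjusted p = 1.29e-06). T cell receptor and signalling genes were higher in 6 of 13, with a median of 0.37, such as Zap70 (0.88 ± 0.17, adjusted p = 0.000271). Homing and residence genes were higher in 6 of 11, and inhibitory receptors in 3 of 7 with 1 lower. Without AB14 the inhibitory receptors were higher in 5 of 7 with 0 lower. In that fit T cell receptor genes were higher in 8 of 13, transcription factors in 10 of 12, homing genes in 8 of 11 and adapters in 6 of 7. There 25.5% of 14332 genes were higher. AB14 was the highest PBS tumour for 5 of the 6 genes, so higher values without it follow largely from the choice. For reference, 25.7% of all genes tested were higher and 24.5% lower in this comparison, and the median of all genes was -0.01.

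With ICT alone against PBS, the counts were 5 of 11 for NK cell receptors and markers, 5 of 6 for granule packaging and release, 9 of 11 for the interferon gamma list and 0 of 13 for T cell receptor genes, where 14.1% of all genes tested were higher. Without AB63 and AB82 they were 1 of 11, 3 of 6, 3 of 11 and 0 of 13 higher, with 3 of 13 T cell receptor genes lower. In that fit 7.82% of 14289 genes were higher and 11.1% passed in either direction. AB63 and AB82 were set aside as the highest ICT tumours in the 6 genes, and summed T cell markers were also highest in AB63. Lower values in that fit thus follow largely from the choice. Tretinoin alone, where 11.5% of all genes tested were higher, gave 7 of 12 transcription factors higher, including Id3 (0.80 ± 0.13, adjusted p = 0.000203), Irf4 (1.01 ± 0.17, adjusted p = 0.000264) and Tbx21 (1.07 ± 0.22, adjusted p = 0.00244), which encodes T-bet. For NK cell receptors and markers it gave 1 of 11, Cd226 (0.75 ± 0.23, adjusted p = 0.0242). No T cell receptor gene passed with tretinoin, the smallest adjusted p being that of the kinase Lck (0.40 ± 0.15, adjusted p = 0.0731).

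Markers of other cell types were summed beside these genes. The 10 NK cell markers, which include Ncr1, summed to 33.4 to 80.0 CPM in PBS tumours (median 39.1) and to 53.8 to 136 in combination tumours (median 84.8). They ranged from 29.5 to 178 with ICT, and Klra4 and Klra8 were near 0, with at most 7 and 5 reads. For 9 of 10 listed T cell markers the medians were 95.3 CPM in PBS, 126 with tretinoin, 88.8 with ICT and 134 with the combination. Macrophage markers (6 of 7) had medians of 2420 CPM in PBS and 3110, 3670 and 4300 with tretinoin, ICT and Tretinoin+ICT. For neutrophil markers (5 of 6) the medians in the same order were 65.9, 74.9, 160 and 156. Their part in the results above was not tested. Of the 4 mesothelial and mesothelioma markers with a row, the sum was 58.3 to 99.9 CPM in every tumour, and Upk3b had 0 reads in 36 of 39. Most of the sum was Pdpn, with a mean of 73.3 CPM against 1.68 for Wt1. Its medians were 68.3 CPM in PBS, 69.0 with tretinoin, 75.5 with ICT and 82.2 with the combination. In the combination against PBS, Wt1 rose by 2.39 ± 0.37 (edgeR adjusted p = 2.71e-05) and Pdpn by 0.27 ± 0.05 (edgeR adjusted p = 0.000193).

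Within the combination, all 6 genes had higher mean levels in responders, and 0 of 6 passed by edgeR, as did 0.0% of 14604 genes, though 3 of 6 and 3302 of all genes had an unadjusted p below 0.05. Nkg7 was 12.5, 15.6, 16.9 and 18.7 CPM in the 4 non-responders and 17.0, 28.1 and 37.6 (lowest, median and highest) in the 6 responders. Of the responders, 5 of 6 were above every non-responder, and AB43 was not. The difference was 1.72-fold (log2 0.78 ± 0.21, adjusted p = 0.0920). Ncr1 was 17.5, 18.7, 24.5 and 26.9 CPM in non-responders and 24.8, 34.5 and 44.6 in responders (log2 0.66 ± 0.18, adjusted p = 0.0925).

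Gzmk was 0.783, 1.0, 1.39 and 1.48 CPM in non-responders, and 5 of 6 responders were higher, the exception being AB45 at 0.980 (log2 0.79 ± 0.30, adjusted p = 0.149). Klrk1 overlapped more, since non-responder AB23 reached 85.4 CPM against a responder median of 79.4 (0.55 ± 0.33, adjusted p = 0.341). Cd8a was 5.37, 5.43, 7.20 and 9.79 CPM in non-responders and 6.24, 11 and 18.0 in responders (0.67 ± 0.31, adjusted p = 0.224). Cd8b1 was nearest between the groups, at 3.48 ± 0.43 against 4.26 ± 1.45 CPM (SD, n = 4 and 6), with a log2 difference of 0.31 ± 0.24 and an adjusted p of 0.472 by edgeR.

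By DESeq2, 2 of 6 passed, Nkg7 (adjusted p = 0.0105) and Ncr1 (adjusted p = 0.0142), where 1409 genes passed. The same pair passed by edgeR when responder AB43 was left out (adjusted p = 0.0166 and 0.0235), in a fit where 1805 of 14540 genes passed. The combination tumours were named in 2 series, series 2 with 3 non-responders and 2 responders and series 4 with 1 and 4. With series as a block, 0 of 6 passed, and the log2 differences were 0.88 for Nkg7 and 0.73 for Ncr1. Within series 2 they were 0.73 (edgeR adjusted p = 0.0239) and 0.64 (edgeR adjusted p = 0.103), in a fit where 885 of 14760 genes passed. Within series 4, where the lone non-responder is assumed to vary like the responders, they were 1.09 and 0.84. The response ratios gave 0 of 9 past the threshold, with Nkg7 over Cd3e at 0.22 (exact permutation test, raw p = 0.343, adjusted p = 0.554) and Cd8a over Ptprc at 0.16 (exact permutation test, raw p = 0.495, adjusted p = 0.661).

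**Figure D5:**
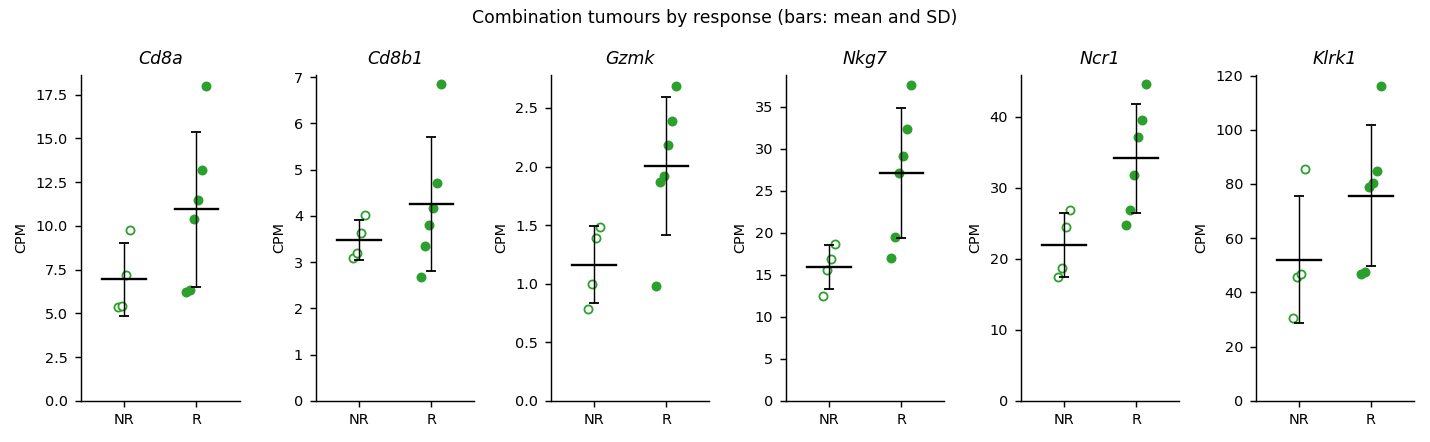
CPM of each gene in the 4 non-responder (NR, open) and 6 responder (R, filled) combination tumours, with means (lines) and SD (bars), each axis from 0. Nkg7 and Gzmk have 5 of 6 responders above every non-responder, while Cd8b1 and Klrk1 overlap.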

How the data were processed

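RNA from 39 whole tumours was sequenced as single-end reads. The authors aligned the reads with HISAT2 2.0.4 to a genome they name mm11 and counted them per gene with SummariseOverlaps. The deposited values are raw counts per gene; strand mode was not given in the sources used here. Groups came from the labels. Gene positions were taken from GENCODE M21 (GRCm38), where 36719 of 39676 identifiers, version included, were found. Genes were filtered with filterByExpr, scaled by TMM and tested by edgeR 4.0.16 (quasi-likelihood, robust; R 4.3.3) on the groups compared alone, with Benjamini-Hochberg adjustment over all genes tested. DESeq2 1.42.0 was an alternative. CPM are TMM scaled over 39 tumours, with a prior count of 2 on the log2 scale. Ratios were tested by two-sided permutation of tumours, exact where a group had under 10 and otherwise with 100000 resamples (scipy). No 2 libraries agreed within sampling noise. The labels do not tie tumours to separate mice, so p values measure the spread between tumours. The steps were tested on simulated data.

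The genes and lists were chosen with earlier results of these data known, as was the choice of AB14, AB33, AB63 and AB82. Named were the 6 genes in every comparison, up to 3 genes of a list with the smallest adjusted p, the genes of the ratios, and the 5 genes most like Cd8a. Of 14 planned ratios, 5 were not analysed here because a gene had no row. Values after ± are the SD between tumours or, for log2 fold changes, the SE of the edgeR fit. Both include the spread between tumours. The labels give 5 doses of tretinoin at 5 mg/kg.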

Additional observations from a re-analysis of the deposited data

Results flagged for a closer look

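In 36 sets of tumours (6 genes in 6 groups), 4 extreme values had a gap to the nearest tumour that was large for the range of their group on the log2 CPM scale. Chance flags about 1 in 20 groups. In the PBS group, tumour AB14 was the highest for Cd8b1, with a gap of 0.578 of the range, and for Ncr1, with a gap of 0.522. Tretinoin tumour AB33 was the highest for Cd8b1, with a gap of 0.589. Responder AB45 was the lowest of its group for Gzmk, with a gap of 0.631, on 36 reads. In the ICT group the gap between AB63 or AB82 and the other tumours was not picked out this way, since the gap is measured to the nearest tumour and the pair lies together.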

How the results depend on the processing

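By both criteria, the number of the 6 genes called was 2 for ICT against PBS. It was 1 with no low-count filter, 0 without AB63 and AB82, and from 0 to 2 with 1 tumour left out. For Tretinoin+ICT against tretinoin it was 0, and 2 with no fold change minimum and 1 without AB33 (chosen after seeing the data). For Tretinoin+ICT against PBS it was 3, and from 2 to 3 with 1 tumour left out. The 15 correlated pairs were also 15 with no centring, and the 18 ratio differences were 18 at either other prior count and 20 without AB14, AB33, AB63 and AB82.

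Some values that missed the threshold changed sign, many of them in fits that left out tumours chosen on these same genes. Without AB63 and AB82 these were, for ICT against PBS, Cd8a (-0.299), Cd8b1 (-0.481) and Gzmk (-0.121). For Tretinoin+ICT against ICT they were Cd8a (0.62), Cd8b1 (0.632) and Gzmk (0.804), and for tretinoin against ICT Cd8a (0.758), Cd8b1 (0.701), Gzmk (0.224), Nkg7 (0.289) and Ncr1 (0.03). Gzmk in tretinoin against PBS was -0.169 without AB14 and AB33, and Cd8a (0.181) and Cd8b1 (0.186) turned in Tretinoin+ICT against tretinoin without AB33. Without the 4 tumours the interactions were 0.297 (Cd8a), 0.462 (Cd8b1), 0.977 (Gzmk), 0.377 (Nkg7), 0.161 (Ncr1) and 0.201 (Klrk1). Cd8b1 in responders was -0.001 within series 4. With 1 tumour left out, Cd8b1 and Gzmk in tretinoin against PBS ran from -0.031 to 0.419 and from -0.267 to 0.216, Cd8b1 in ICT against PBS from -0.038 to 0.56, and Cd8a, Cd8b1 and Gzmk in Tretinoin+ICT against ICT from -0.387 to 0.133, -0.334 to 0.189 and -0.154 to 0.323.

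DESeq2 brought 5 gene results below an adjusted p of 0.05, and no low-count filter took 4 above it; fewer genes are tested with the filter. Of all genes, 283 passed in Tretinoin+ICT against ICT by edgeR, 549 by DESeq2, 741 with 39 tumours in one fit and 2420 without AB63 and AB82. The interaction gave 46, 81 by DESeq2, 74 without the 4 tumours and 29 with no low-count filter. By both criteria, 778 genes were higher in Tretinoin+ICT against PBS and 1335 with no low-count filter. Responders gave 0 by edgeR and 1409 by DESeq2. Depth limits Gzmk most, at 5 to 74 reads. The cause of these shifts was not tested. No paired analysis was possible because nothing in the labels ties a tumour of one group to a tumour of another: replicate numbers only count tumours within a group, and the last digit of a tumour name is not said to mark a litter, cage or day.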
